A study of Mus musculus with 444 samples.

Results

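The 39 genes described here take part in DNA replication and the S phase of the cell cycle, and they were followed in single epithelial cells of the mouse mammary gland at puberty and in adulthood. The genes form a fixed list of replication enzymes, nucleotide-supply enzymes, chromatin factors and S-phase regulators that was not chosen by a threshold on these values. All 39 were matched through the Entrez gene identifiers of the count files, among 25135 genes used in all. The donors were mice of the inbred strain FVB/NJ, with no treatment and no engineered allele, and their mammary cells were labelled as total epithelium at puberty or adulthood. The headers of the deposited columns give ages of 4 weeks for the pubertal cells and 10 weeks for the adult cells, and the methods put puberty about a week later. Cells were sorted from pooled glands as CD24+ cells without haematopoietic and endothelial markers, captured singly in the chambers of a Fluidigm C1 chip, and sequenced after Nextera XT library preparation on a Nextseq 500. The labels name no animal, sort or capture run for a cell, so each stage stood as 1 sample, no test between stages was possible, and every interval covers counting error only. Reads carried no molecular identifiers, so amplified copies of a molecule were counted separately.

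In S phase a cell copies its genome. The hexameric Mcm2 to Mcm7 helicase is loaded onto origins before S phase, is activated by Cdc45 and the GINS complex, and unwinds the DNA ahead of polymerases that are held in place by the sliding clamp Pcna. Transcription of many of the genes concerned is switched on at the boundary of G1 and S by E2F transcription factors, and the products of Rrm1, Rrm2 and Tyms supply the deoxynucleotides. The ducts of the mammary gland elongate at puberty from proliferating terminal end buds, whereas the adult virgin gland holds fewer dividing cells.

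To show the regulatory sequence that several of these genes have in common, the promoters of the members with at least 2 E2F-type words are given. The windows are 300 bases long and were taken from RefSeq for build GRCm38.p6. Each reaches from 250 bases before an annotated start to 50 bases after it. For Mcm5 and Mcm7 that start lies inside the outer bounds of the gene. The words searched on both strands were TTTCCCGC, TTTGGCGC, TTTCGCGC and TTTGCCGC. They are printed in capitals, and where words on opposite strands overlap the capitals form a single longer run. Each sequence is written 5′ to 3′ on the strand of its gene. Mcm3 lies on the minus strand (chr1:20820263-20820562), Mcm5 on the plus strand (chr8:75109259-75109558), Mcm6 on the minus strand (chr1:128359656-128359955) and Mcm7 on the minus strand (chr5:138171834-138172133). A second window of Mcm7 (chr5:138171217-138171516) had no such word and is not printed.
Mcm3: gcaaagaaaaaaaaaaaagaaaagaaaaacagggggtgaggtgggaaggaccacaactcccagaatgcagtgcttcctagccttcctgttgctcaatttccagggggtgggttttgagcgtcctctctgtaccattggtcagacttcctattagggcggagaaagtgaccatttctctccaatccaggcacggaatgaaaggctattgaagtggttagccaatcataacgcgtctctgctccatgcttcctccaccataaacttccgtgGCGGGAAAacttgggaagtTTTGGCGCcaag
Mcm5: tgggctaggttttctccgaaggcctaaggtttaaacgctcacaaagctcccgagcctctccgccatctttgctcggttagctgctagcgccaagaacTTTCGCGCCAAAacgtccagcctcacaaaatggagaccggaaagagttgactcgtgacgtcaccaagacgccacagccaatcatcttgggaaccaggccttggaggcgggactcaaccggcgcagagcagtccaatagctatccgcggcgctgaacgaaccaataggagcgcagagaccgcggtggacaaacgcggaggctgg
Mcm6: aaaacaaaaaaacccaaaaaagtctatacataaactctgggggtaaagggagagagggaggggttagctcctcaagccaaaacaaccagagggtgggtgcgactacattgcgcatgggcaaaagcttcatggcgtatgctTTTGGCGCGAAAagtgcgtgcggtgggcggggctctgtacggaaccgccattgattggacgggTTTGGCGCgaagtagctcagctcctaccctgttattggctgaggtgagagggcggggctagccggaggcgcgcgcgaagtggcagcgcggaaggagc
Mcm7: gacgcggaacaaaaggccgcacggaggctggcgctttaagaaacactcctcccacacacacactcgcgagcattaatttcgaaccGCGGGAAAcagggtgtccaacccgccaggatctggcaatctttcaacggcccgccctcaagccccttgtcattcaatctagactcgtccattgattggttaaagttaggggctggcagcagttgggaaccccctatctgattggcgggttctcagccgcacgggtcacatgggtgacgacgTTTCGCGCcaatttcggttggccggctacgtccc

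All 4 of these genes encode subunits of the same helicase. A promoter was given for 29 of the 39 members, and 11 of the 29 (37.9%) had such a word in at least 1 window. The share was 2.6% of all 27025 genes with a promoter and 4.96% of the 6169 of them that reached 20 CPM (reads scaled to a common total of all reads) in a stage. The other members with a word were Cdc6, Uhrf1, Hells, Cdca7, Dtl, Casp8ap2 and Clspn. The shorter word CCAAT, which can share its outer bases with an E2F-type word, stood in the promoters of 20 of the 29 members (69.0%) and of 42.8% of the 6169 genes. A match of letters is a description of the sequence and not a binding site. Mcm4, Gins2, Rfc2, Gmnn, Atad2, Ccne2, Usp1, Exo1, Tipin and Dscc1 were not matched to a promoter.

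Of 444 cells, 323 had at least 100000 read pairs and 1500 genes, namely 171 of 221 pubertal cells (77.4%, exact 95% binomial interval 71.3 to 82.7%) and 152 of 223 adult cells (68.2%, 61.6 to 74.2%). Retained cells held 101471 to 1354104 read pairs at puberty and 100883 to 1049746 in the adult, and each was thinned to 100000 before cells were compared. The adult cells were not uniform. The small nuclear RNA gene Rn7sk had reads in all 107 retained adult cells numbered 48 to 188 in their labels and in 8 of the other 45 (17.8%), against 35 of 171 pubertal cells (20.5%), and the adult sets had medians of 2861 and 2191 detected genes. The main comparisons of stages are therefore also given against each of these adult sets. At least 3 of 8 luminal epithelial markers were seen in 94.7% of pubertal and 96.1% of adult cells. Among markers of other cell types, 4 of the 6 immune markers and Plin1 of the 3 adipocyte markers had no read in cells rich in S-phase genes. The 7 fibroblast markers were not low, with 1510 CPM in pubertal and 1210 CPM in adult cells. The adult cells 48 to 188 had 683 CPM and the other adult cells 2463 CPM, and a single pubertal cell reached 48170 CPM. These markers summed to 331 CPM in cells rich in S-phase genes against 1587 CPM in the other cells. The median was 20 CPM per cell in both, and 3 or more of the markers were seen in 17.9% and 8.99% of cells. The 4 endothelial markers summed to 22.5 and 25.2 CPM. The part of such cells in the results was not tested.

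S-phase genes were detected in nearly every cell but in large number in few of them. A pubertal cell had reads of 8.23 of the 39 genes on average (lowest 0, median 6, highest 27), and an adult cell of 6.88 (lowest 0, median 6, highest 27). The medians were equal, and the stages overlapped over the whole range. The difference lay in the upper part of the distribution. At puberty 37 of 171 cells (21.6%, 15.7 to 28.6%) had 13 or more of the genes, and in the adult 19 of 152 (12.5%, 7.70 to 18.8%), intervals that overlapped. The cells with 13 or more genes are called the high range here, which is a range of a count and not a cell type. With 16 or more genes the counts were 32 pubertal and 9 adult cells, and with 20 or more they were 18 and 5. With 10 or more genes the shares were alike, 25.7% of pubertal and 25.0% of adult cells, because 19 adult cells but only 7 pubertal cells had 10 to 12 genes. The size of the gap between the stages thus depended on how many genes a cell was asked to show.

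**Figure D1:**
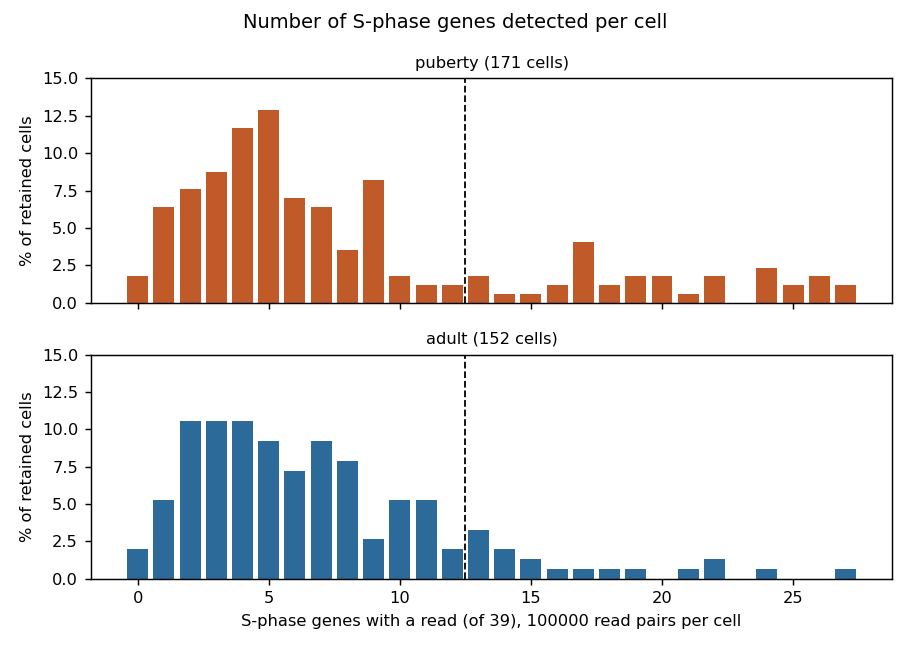
Histograms of the number of S-phase genes with a read per retained cell, in percent of the 171 pubertal (top) and 152 adult cells (bottom), each cell thinned to 100000 read pairs; the dashed line marks 13 genes. Pubertal cells were few between 10 and 12 genes (7 cells) and formed a long tail up to 27, whereas adult cells declined gradually (19 cells between 10 and 12).

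The adult sets differed from each other in the same measure. The cells numbered 48 to 188 had 7.47 of the genes on average and 16 of 107 cells in the high range (15.0%, 8.80 to 23.1%), and the other adult cells had 5.47 and 3 of 45 (6.67%, 1.40 to 18.3%). Both shares lay below the pubertal share, and the intervals of the pubertal cells and of either set overlapped. The number of S-phase genes in a cell went with the number of all genes detected in it (r = 0.68 over 323 cells, 0.62 at puberty and 0.79 in the adult), the cells having been thinned to the same depth. Cells of the high range had medians of 3484 genes at puberty and 3925 in the adult, against 2667 and 2457 below it. The part of the gene number in these shares was not tested.

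The reads followed the same cells. S-phase genes together took 1971 CPM of the pubertal reads and 1256 CPM of the adult reads. At puberty 61.1% of these reads came from the 37 cells of the high range, and in the adult 34.7% came from 19 cells. Within the high range the level was 5563 CPM at puberty and 3491 CPM in the adult, but the adult sets lay on either side of puberty, with 2936 CPM in 16 cells numbered 48 to 188 and 6450 CPM in 3 other adult cells. In the cells below the high range the levels were 979 and 937 CPM, with 849 and 1129 CPM in the adult sets, and these cells had 5.01 pubertal and 5.43 adult S-phase genes on average. The range was set by detection of the same genes, so these levels are a description.

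Summed over each stage, 24 of the 39 genes reached 20 CPM in puberty or adulthood, and 15 did not. Of the 24, 10 were 2-fold or more higher at puberty (41.7%), 1 was 2-fold lower and 13 lay between. Over all 7803 genes that reached this level, 19.5% were 2-fold higher at puberty and 14.4% were 2-fold lower. With 1 CPM added to both sides, the log2 ratio of puberty to adult had a median of 0.85 for the 24 genes and 0.09 for all genes. Against the adult cells 48 to 188 alone, 14 of 25 S-phase genes were 2-fold higher and 1 was lower (25.6% and 15.7% of all genes), with a median of 1.19 against 0.15. Against the other adult cells, 10 of 25 were higher and 4 were lower (28% and 20% of all genes), with a median of 0.36 against 0.12. The share of S-phase genes at 2-fold higher was thus above that of all genes in each comparison, by the least against the other adult cells. In such sums, fewer cells with a transcript and less transcript per cell cannot be told apart.

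Over all 39 genes, 31 had a ratio above 0 (79.5%) and 8 below it, against 55.1% above 0 among the 17458 genes with a read. Against the adult sets taken separately, 25 were higher at puberty in both comparisons (64.1%, against 42.8% of the 17458 genes), 2 were lower in both (5.13% against 15.6%), and 12 differed in sign. The 10 genes at 2-fold or more stayed above 0 in both, and 8 of them were 2-fold in both. Overlap with other annotated genes went with the size of the ratio, and since use of strand was not stated, reads of overlapping genes may be shared. The 5 members past the level that overlap another gene, which are Mcm7, Gins2, Dtl, Atad2 and Tipin, were all among the 10. Of the 19 without an overlap, 5 (26.3%) were 2-fold higher, nearer to the 19.5% of all genes, and their median log2 ratio was 0.52 against 0.09. The part of overlapping reads in the ratios was not tested.

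**Figure D2:**
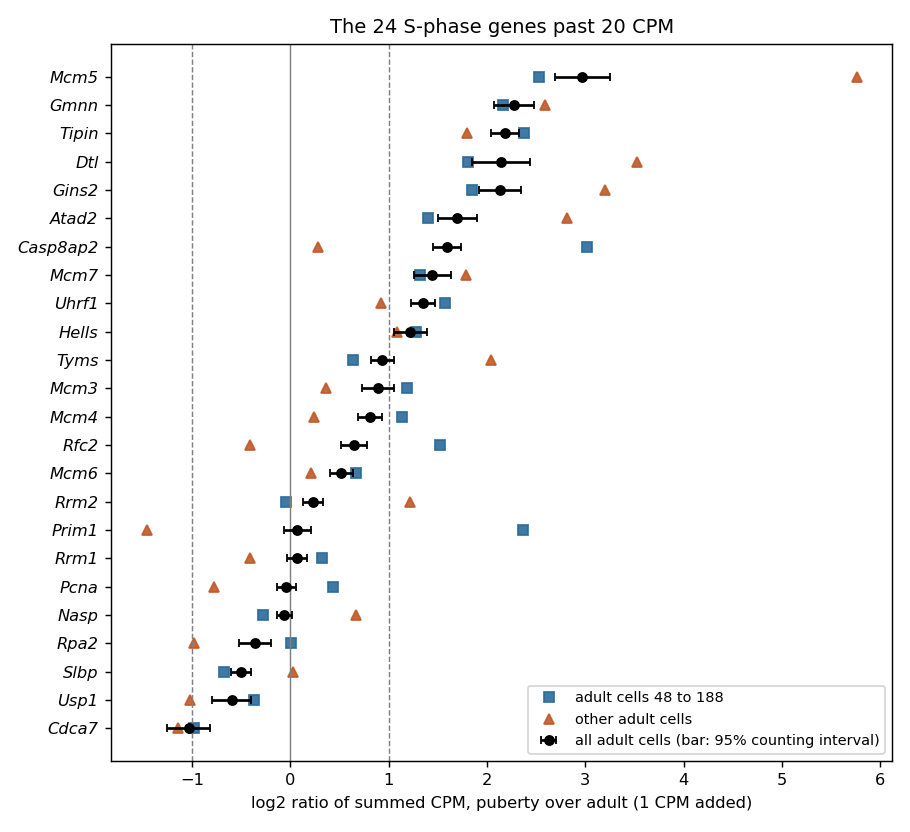
Log2 ratios of summed CPM, puberty over adult, for the 24 S-phase genes that reached 20 CPM in a stage; black points with bars are ratios to all adult cells with 95% counting intervals, squares are ratios to adult cells 48 to 188 and triangles to the other adult cells, and dashed lines mark 2-fold. Mcm5 stood highest at 2.97 and Cdca7 lowest at −1.03, and the adult sets gave opposite signs for genes such as Prim1 (2.37 and −1.46).

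Among the helicase and origin genes, 7 of 10 reached the level and 4 of the 7 were 2-fold higher at puberty (19.5% of all genes). Mcm5, a helicase subunit, had 53.2 CPM at puberty (49.8 to 56.8) and 5.92 CPM in the adult (4.76 to 7.28), a log2 ratio of 2.97. Pubertal cells with a read numbered 33 of 171 and adult cells 9 of 152. Of the 45 other adult cells 0 had a read at the thinned depth. Without thinning, 4 of them had 15 reads in all (0.840 CPM), against 44.1 CPM at puberty and 3.67 CPM in adult cells 48 to 188. A single adult cell held 72.2% of the adult reads of Mcm5, and leaving out the top cell in both stages moved the ratio to 4.05. Mcm7 stood at 49.9 and 17.7 CPM (log2 ratio 1.44), with reads in 32.2% of pubertal and 23.7% of adult cells. Mcm7 overlaps Ap4m1 and hosts the microRNA genes Mir25, Mir93 and Mir106b.

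The other subunits differed less in their levels. Mcm3 had 53.7 CPM at puberty and 28.5 CPM in the adult (log2 ratio 0.89). Mcm4 had 92.5 and 52.4 CPM (0.81), and Mcm6 had 82.9 and 57.6 CPM (0.52). All 3 were higher against both adult sets, with the smaller ratios, 0.36, 0.24 and 0.21, against the other adult cells. Mcm2 was under the level in both stages, at 11.1 and 1.71 CPM, and was seen in 9 pubertal and 3 adult cells. Per length of transcript, the pubertal subunits ranged from 3.28 RPKM for Mcm2 to 28.6 RPKM for Mcm6, although the protein complex holds a copy of each.

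No cell had reads of all 6 helicase subunits at this depth, which allows shares of up to 1.75% of pubertal and 1.97% of adult cells. At least 3 subunits were seen in 40 pubertal cells (23.4%, 17.3 to 30.5%) and in 13 adult cells (8.55%, 4.63 to 14.2%), intervals that did not overlap. Adult cells 48 to 188 gave 8.41% (3.92 to 15.4%). The other adult cells gave 8.89% (2.48 to 21.2%), an interval that overlapped the pubertal one. The separation also depended on the number of subunits asked for. With 4 or more, the counts were 20 at puberty (11.7%, 7.29 to 17.5%) and 6 in the adult (3.95%, 1.46 to 8.39%), with overlapping intervals. Intervals overlapped with 1 or more as well. No subunit was seen in 37.4% of pubertal and 43.4% of adult cells. The subunits are themselves members of the list that sets the high range, so their concentration in it, where 26 of 56 cells had at least 4 subunits against 0 of 267 below, is a description only.

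Gins2, a subunit of the GINS complex that activates the helicase, had 57.2 CPM at puberty and 12.3 CPM in the adult (log2 ratio 2.13). Gmnn, which encodes geminin, the inhibitor of repeated origin licensing, had 70.4 CPM (66.5 to 74.5) and 13.8 CPM (11.9 to 15.7), a log2 ratio of 2.28. Its reads came from 30.4% of the pubertal cells and 16.4% of the adult ones. Against the adult sets the ratios of Gmnn were 2.16 and 2.59. Cdc45, the helicase activator, and Cdc6, the loading factor, were under the level. A single pubertal cell held 56.2% of the pubertal reads of Cdc45 and a single one 57.0% of those of Cdc6, and a single adult cell held 83.2% of the adult reads of Cdc6.

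The fork genes were closer between the stages. Pcna, the sliding clamp, had 109 CPM at puberty (104 to 114) and 112 CPM in the adult (107 to 118). It was among the most widely detected members, with reads in 53.8% of the pubertal cells and 63.2% of the adult ones, and its ratios to the adult sets had opposite signs, 0.43 and −0.78. Rfc2, part of the clamp loader, had 74.2 and 47.0 CPM (log2 ratio 0.65), with opposite signs against the adult sets (1.52 and −0.41). Rpa2, which coats single-stranded DNA, had 31.0 and 40.1 CPM (−0.36; 0.01 and −0.98 against the adult sets), with 44.7% of the adult reads in a single cell. Prim1, the catalytic subunit of primase, had 51.0 and 48.5 CPM in sum. That near equality combined 9.07 CPM in adult cells 48 to 188 with 142 CPM in the other adult cells, 7 of which had reads.

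Tipin, which protects stalled forks together with Timeless, was the exception in this group. It had 145 CPM at puberty (139 to 151) and 31.2 CPM in the adult (28.5 to 34.2), a log2 ratio of 2.18, with ratios of 2.38 and 1.80 against the adult sets. At 120 RPKM it was the highest member per length at puberty. Next in that order at puberty were Pcna (86.7 RPKM) and Gmnn (72.1 RPKM), and in the adult the order began with Pcna (89.2 RPKM), Slbp (70.4 RPKM) and Nasp (57.6 RPKM). Fen1, the flap endonuclease, Clspn, a checkpoint mediator, and Dscc1, of an alternative clamp loader, were under the level. Fen1 showed a log2 ratio of −1.17, but 83.9% of its adult reads came from a single cell, and leaving out the top cell in both stages moved the ratio to 0.68.

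The nucleotide-supply genes were 3 of 3 past the level and none was 2-fold apart. Rrm1 and Rrm2 encode the subunits of ribonucleotide reductase. Rrm1 had 95.3 and 91.1 CPM (log2 ratio 0.07, with 0.32 and −0.41 against the adult sets) but was seen in fewer pubertal cells, 25.1% (18.8 to 32.3%), than adult cells, 42.8% (34.8 to 51.0%). Rrm2 had 102 and 87.3 CPM (0.23, with −0.04 and 1.22 against the adult sets). In the other adult cells Rrm2 had reads in 2 of 45 cells, and 98.0% of them came from 1 of these. Tyms, thymidylate synthase, had 109 and 56.8 CPM (0.94), with ratios of 0.64 and 2.04 against the adult sets. Reads of Tyms and of its pseudogene Tyms-ps can be exchanged: Tyms-ps held 21.6% of the reads of the pair and was seen in 74 cells, 65 of which also had Tyms, so the level of Tyms is uncertain.

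Of the 7 genes of chromatin assembly and maintenance methylation, 6 reached the level and 4 were 2-fold higher at puberty (19.5% of all genes). Uhrf1, which directs the methyltransferase Dnmt1 to newly made DNA, had 115 CPM (110 to 120) and 44.6 CPM (41.3 to 48.1), a log2 ratio of 1.35. It was seen in 39.2% of pubertal and 19.1% of adult cells, with 19.6% and 17.8% in the adult sets. Hells, a chromatin remodeller, had 57.4 and 24.1 CPM (1.22), and its ratios to the adult sets, 1.28 and 1.09, lay close together. Atad2, a bromodomain ATPase, had 52.9 and 15.7 CPM (1.69). Casp8ap2, which is needed for histone gene expression, had 99.8 and 32.4 CPM (1.59), with 60.4% of the adult reads in a single cell and ratios of 3.01 and 0.28 to the adult sets. Nasp and Slbp, which handle histone proteins and histone messenger RNA, did not share this order. Nasp had 174 and 182 CPM (−0.06, with −0.28 and 0.66 against the adult sets), and Slbp had 81.0 and 115 CPM (−0.50) and was seen in 36.3% of pubertal and 54.6% of adult cells. The lower level of Slbp at puberty was not found against the other adult cells, where the ratio was 0.02. Chaf1b, a subunit of the histone chaperone CAF-1, was under the level at 15.9 and 7.30 CPM.

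Among the S-phase regulators 2 of 5 reached the level. Dtl, the substrate receptor that marks Cdt1 for degradation during S phase, had 28.3 and 5.66 CPM (log2 ratio 2.14). Cdca7, a partner of Hells, was the single member 2-fold lower at puberty, at 14.2 CPM (12.4 to 16.1) against 30.0 CPM (27.3 to 32.9), a log2 ratio of −1.03. Its ratios to the adult sets were −0.98 and −1.14, so that Cdca7 and its partner Hells lay on opposite sides of 0 against both. The cyclins Ccne1 and Ccne2, which drive entry into S phase, and the repressor E2f8 were under the level. Of the repair genes only Usp1, a deubiquitinase that acts on Pcna, reached it, at 19.6 and 30.1 CPM (−0.60). Ung, Rad51ap1, Wdr76, Blm and Exo1 did not. Exo1, an exonuclease, had 163 reads at puberty and 1 in the adult, a ratio of 145 (counting interval 25.6 to 5757). Of the 15 members under the level, 13 had ratios above 0 and 2 below it, at levels of 0.0658 to 19.8 CPM. Some were seen in as few as 1 cell of a stage. No count over all genes under the level stands beside these, so they describe the 15 members only.

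Single cells set many of these sums. For 12 of the 39 genes a single adult cell held 50% or more of the adult reads, against 2 genes at puberty. No count over all genes stands beside these, so they describe the 39 genes only. The highest cell held a median of 31.2% of the adult and 17.3% of the pubertal reads of a gene. Counted as cells with a read, 29 genes were seen in a larger share of pubertal cells and 10 in a larger share of adult cells. Of the 17458 genes with a read, 54.7% were seen in a larger share of pubertal cells. The intervals of the shares did not overlap for 8 of the 29 and 2 of the 10, or 20.5% and 5.13% of the 39 genes, against 5.57% and 4.86% of the 17458 genes. Many of the 17458 genes had few reads. Among all genes that reached 20 CPM in a stage the shares were 10.4% and 8.23%, so the S-phase genes exceeded only the former. The 10 genes at 2-fold or more higher sums were all seen in a larger share of pubertal cells. All 10 stayed at 2-fold or more when the top cell was left out in both stages. These 10 were picked by the same ratio, and the top cell generally held more of the adult than of the pubertal reads. Leaving it out therefore tends to raise the ratio, and the result is a description only.

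The next question was whether the genes were detected in the same cells. Each gene was left out in turn, and cells with 12 or more of the other 38 genes, 56 to 61 cells depending on the gene, were set against cells with fewer. The median gene was seen in 44.1% of the former and in 11.8% of the latter, and the median ratio of the shares was 4.13. For the 7775 other genes past the level that were seen below the high range, the median ratio between the high range and the rest was 1.44 (medians 35.7% and 22.5%), and 38 of 39 members lay above it. Unlike these other genes, 15 of the members were under the level, so the sets are not fully alike. The member that did not lie above it, Cdc6, was under the level. Mcm6 was seen in 74.1% against 13.2% of cells, Tyms in 77.6% against 15.8%, and Uhrf1 in 78.9% against 19.2%. Rad51ap1, which assists homologous recombination, was seen in 24.6% against 0.763%. Pcna, in 91.2% against 51.1%, and Nasp, in 92.9% against 55.8%, were common in both groups of cells. Slbp had a small contrast for a widely detected gene, 66.7% against 40.2%. Cdc6 was the exception, in 3.28% against 3.44%. The cells with 12 or more others also had more genes in all, as given above, and both measures share library and depth.

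**Figure D3:**
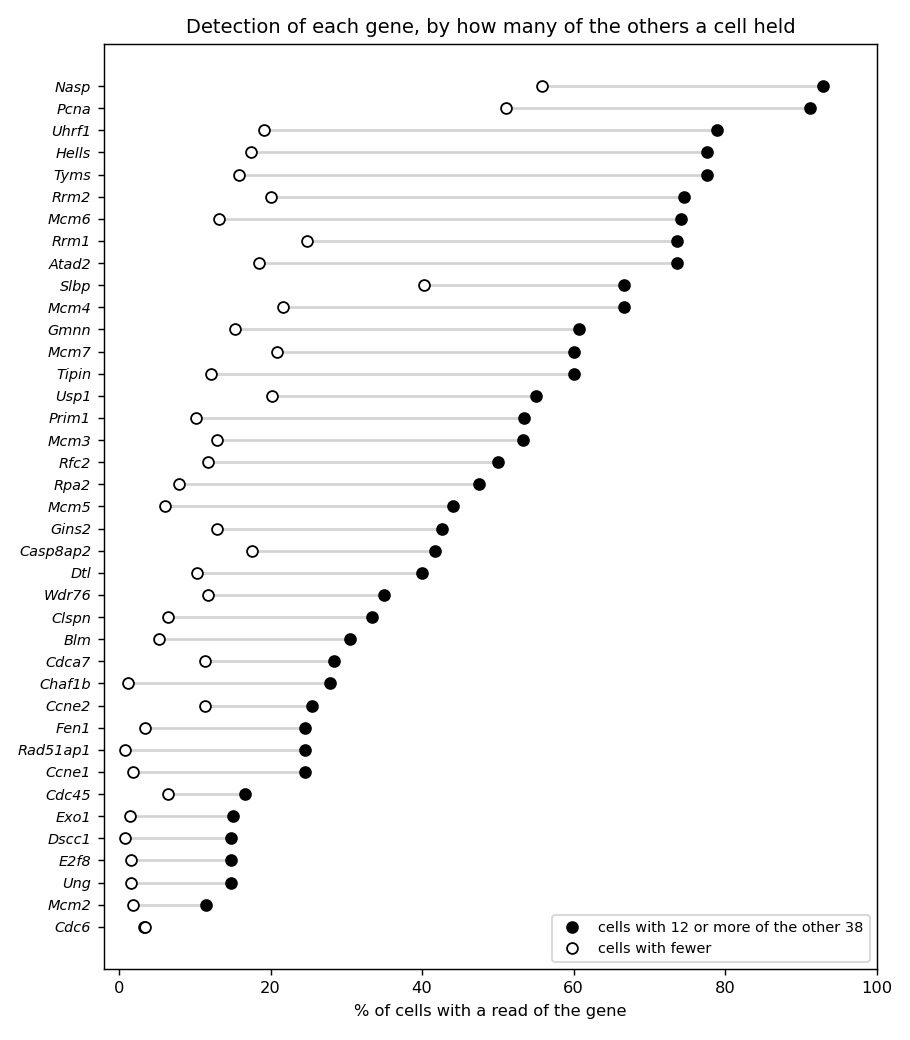
Percent of retained cells with a read of each S-phase gene, in cells with 12 or more of the other 38 genes (filled) and in cells with fewer (open), genes ordered by the filled value. Every gene but Cdc6 was seen more often in the former, from 11.5% against 1.91% for Mcm2 to 92.9% against 55.8% for Nasp.

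The contrast was also examined within each stage. Uhrf1 was seen in 91.9% of pubertal cells with 12 or more others and in 24.6% of those with fewer, and in 55.0% and 13.6% of adult cells. Mcm4 showed 79.5% and 22.0% at puberty and 42.9% and 21.4% in the adult. Prim1 showed 67.6% and 11.9% at puberty and 28.6% and 8.40% in the adult. Rrm1 was unlike these in the cells with fewer others, where it was seen in 12.0% of pubertal and 37.6% of adult cells. Slbp showed the same order there, with 29.3% and 51.1%, and so did Nasp, with 47.0% and 64.7%. All 3 were among the 10 members seen in a larger share of adult cells.

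Reads were held by still fewer cells. The 5% of cells with most other members detected were 16 cells, for which the read share of a gene ranged from 3.33% to 65.2% with a median of 22.9%. For all genes past the level the median share held by the cells richest in S-phase genes was 4.07%. Ranked by all 39 genes, the 16 cells had at least 22 of them each, and 14 were pubertal and 2 adult. Exo1 (65.2%), Dscc1 (60.0%), Cdc45 (55.5%) and Rad51ap1 (50.0%) were at 50% or above. Among the genes past the level, Tipin had 37.8% and Atad2 31.2%, while Casp8ap2 had 8.28% and Cdca7 5.59%. Log2(CPM + 1) values of a gene and the mean of the others correlated across the 323 cells with a median r of 0.41. The highest were Uhrf1 (0.64), Tyms (0.62) and Mcm6 (0.61), and the lowest was Cdc6 (0.04).

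Genes of the same process that are not members were set beside these. Of 53 other replication genes, 35 reached the level, and 14 were 2-fold higher and 3 lower at puberty (19.5% and 14.4% of all genes), with a median log2 ratio of 0.65. Against adult cells 48 to 188 the median was 1.18 with 17 of 33 higher (25.6% of all genes), and against the other adult cells it was 0.20 with 11 of 36 higher (28% of all genes), close to all genes there (0.12). Timeless, the partner of Tipin, had 26.8 and 1.71 CPM (3.36), with 53.8% of its pubertal reads in a single cell, and Asf1b, a histone chaperone, had 21.0 and 1.38 CPM (3.21). Rfc4, of the clamp loader, had 84.2 and 20.7 CPM (1.97), and Tk1, thymidine kinase, had 34.0 and 8.03 CPM (1.95). The adult sets were far apart for Tk1, with ratios of 4.11 and 0.45. Of 14 G1 cyclins, CDK inhibitors and pocket proteins, 12 reached the level, and 4 were 2-fold higher and 1 lower, with a median of 0.53 (0.73 and 0.68 against the adult sets). E2f4 (2.65), Cdkn1c (2.04), Cdkn1b (1.29) and Cdkn2d (1.18) were the former, of which E2f4 encodes a repressive E2F factor and the others CDK inhibitors. A single pubertal cell held 53.5% of the pubertal reads of E2f4, and leaving out the top cells moved its ratio to 1.91. Rbl2, a pocket protein, was the latter (−2.50), with 63.8% of its adult reads in a single cell and a ratio of −1.48 without the top cells.

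Genes of G2 and mitosis, the phases that follow S phase, were described next. Of 25, 21 reached the level, 14 were 2-fold higher at puberty and none was lower (19.5% and 14.4% of all genes), and the median log2 ratio was 1.27 against 0.09 for all genes. Cdk1, the mitotic kinase, had 96.8 and 13.2 CPM (2.79), and Birc5, a subunit of the chromosomal passenger complex, had 87.0 and 13.4 CPM (2.61). Top2a, the topoisomerase that separates sister chromatids, had 269 and 64.4 CPM (2.04). Against the adult sets the medians of this list were 1.46 and 1.18, closer to each other than the medians of the S-phase genes, 1.19 and 0.36.

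In single cells the lists overlapped without coinciding. Cells of the high range had a median of 12 of the 25 G2 and mitosis genes at puberty (lowest 1, highest 24) and of 7 in the adult (lowest 1, highest 16). Below it the medians were 2 and 1. In adult cells 48 to 188 the medians were 7 and 1, and the 3 other adult cells of the high range had 1 to 9 of the genes. At least 8 of these genes were seen in 29 of 37 pubertal cells of the high range (78.4%, 61.8 to 90.2%) and in 8 of 19 adult ones (42.1%, 20.3 to 66.5%). Some cells below the high range also held many G2 and mitosis genes: 15 of 134 pubertal cells (11.2%) and 18 of 133 adult cells (13.5%) had at least 8, up to 25 and 21. The number of genes of both lists per cell correlated with r = 0.69 over 171 pubertal and 0.52 over 152 adult cells, which share their libraries and gene numbers.

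**Figure D4:**
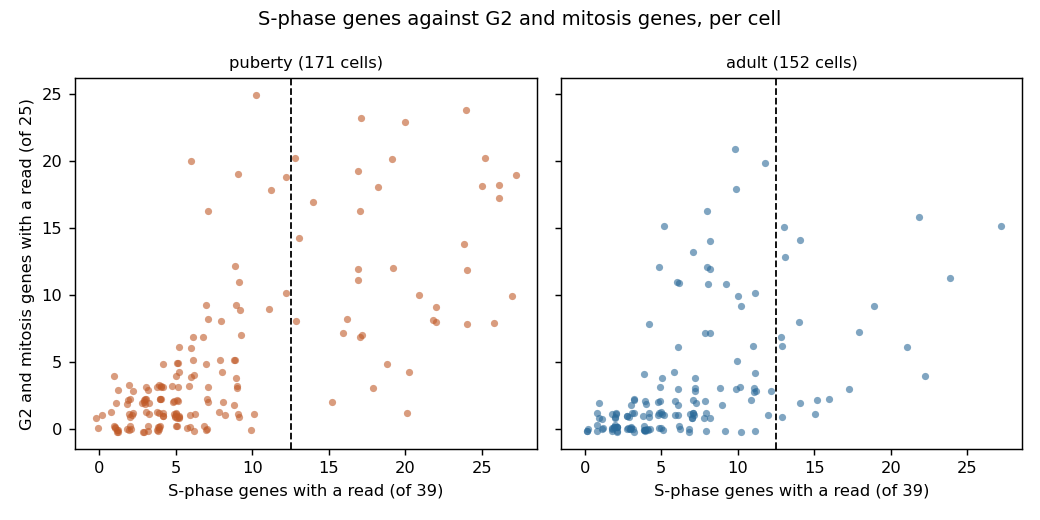
Number of G2 and mitosis genes with a read (of 25) against S-phase genes with a read (of 39) in each pubertal (left) and adult cell (right), points moved by a small random amount; the dashed line marks 13 S-phase genes. Cells to the right of it had medians of 12 G2 and mitosis genes at puberty and 7 in the adult, and a few cells to the left, up to 25 and 21 genes, were rich in the latter alone.

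The genes whose levels most resembled the mean of the S-phase genes across the 323 cells were sought among 9750 genes seen in at least 5% of cells. Their median r was 0.10, and 99% of them lay below 0.39. Pclaf, which encodes a Pcna-binding factor, was nearest with r = 0.69, followed by Pbk, a mitotic kinase (0.66), Tyms-ps (0.65), Top2a (0.65) and Esco2, a cohesin acetyltransferase (0.63). Zfp367, Prc1, Lig1, Cenph, Smc2, Cdk1, Dut, Melk, Cenpk and Hmgb2 completed the 15, with r down to 0.56. Lig1 encodes the ligase that joins Okazaki fragments and Dut the enzyme that removes dUTP. Pclaf had 153 CPM at puberty and 36.6 CPM in the adult (log2 ratio 2.03). Cdk1 and Melk were seen in 26.3% and 11.7% of pubertal cells and in 5.92% and 1.32% of adult cells.

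Cells were then divided by the lineage markers that led in them, basal (such as Krt5), luminal progenitor or mature luminal, with a margin of 0.2 in mean standardised level; 41 cells lay within 0.1 of that margin, and 49 had no leading set. These classes are ranges of a score. The composition differed between the stages. Cells led by mature luminal markers made up 46.2% of pubertal and 20.4% of adult cells, and cells led by basal markers 24.0% and 42.8%. In the adult, the cells 48 to 188 were 49.5% basal-led and 13.1% mature luminal-led, and the other adult cells 26.7% and 37.8%.

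Cells rich in S-phase genes were found in every class at puberty. The high range held 11 of 41 cells led by basal markers (26.8%, 14.2 to 42.9%), 7 of 28 led by luminal progenitor markers (25.0%, 10.7 to 44.9%) and 18 of 79 led by mature luminal markers (22.8%, 14.1 to 33.6%). In the adult the counts were 11 of 65 (16.9%, 8.76 to 28.3%), 1 of 30 (3.33%, 0.0844 to 17.2%) and 4 of 31 (12.9%, 3.63 to 29.8%). Split by adult set, these were 10 of 53 and 1 of 12, 1 of 22 and 0 of 8, and 2 of 14 and 2 of 17. Cells without a leading set gave 1 of 23 at puberty (4.35%, 0.110 to 21.9%) and 3 of 26 in the adult (11.5%, 2.45 to 30.2%). The pubertal share was the larger in each class with leading markers but not in the cells without them, and the intervals overlapped in each. Asked for 10 or more genes, the basal-led cells reversed this order, with 26.8% at puberty and 41.5% in the adult, and so they did with unthinned counts, with 28.2% and 38.2%. The mean number of genes was likewise 8.29 in pubertal and 8.52 in adult basal-led cells, against 7.25 and 5.03 for luminal progenitor-led and 9.15 and 5.97 for mature luminal-led cells. The adult basal-led cells with 10 to 12 genes numbered 16, of which 14 were among the cells 48 to 188.

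**Figure D5:**
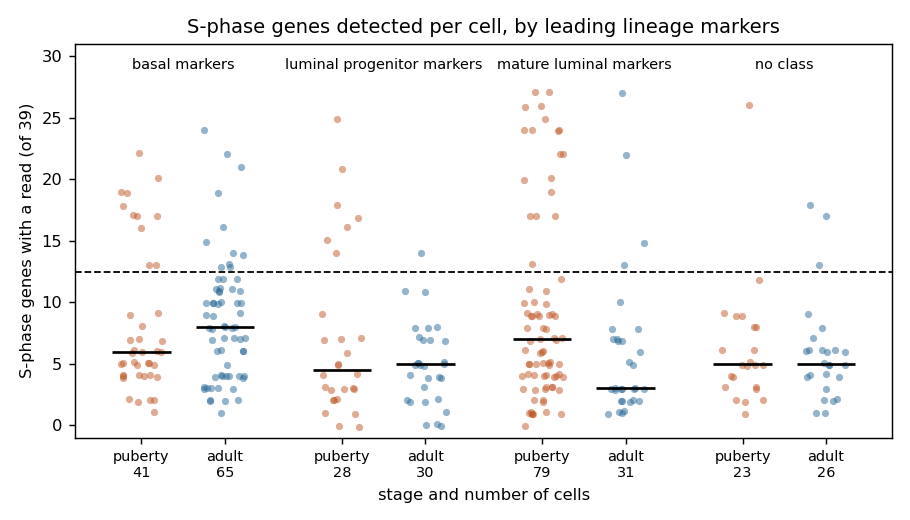
Number of S-phase genes with a read (of 39) in each retained cell, by the lineage markers that led in it and by stage, with the number of cells under each column; horizontal bars are medians and the dashed line marks 13 genes. Of the pubertal cells with 20 or more genes, 13 of 18 were led by mature luminal markers, and the median was higher in adult than pubertal cells led by basal markers (8 and 6 genes).

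Within a class the levels of single genes rested on few cells and were not split by adult set. Among basal-led cells, 8 of the 24 genes past the level were 2-fold higher at puberty and 3 lower (26.4% and 20.9% of all genes), with a median log2 ratio of 0.11 against 0.08 for all genes, so that the sums of the genes differed little from the background there. Among luminal progenitor-led cells 11 were higher and 2 lower (31.7% and 26.6% of all genes), with a median of 0.91 against 0.04. Among mature luminal-led cells 11 were higher and 2 lower (32.3% and 17.6%), with a median of 0.85 against 0.26. Mcm5 was higher at puberty in all 3 classes. It had 100 and 1.85 CPM in basal-led, 31.4 and 4.33 CPM in luminal progenitor-led, and 36.7 and 21.0 CPM in mature luminal-led cells. Gmnn had 71.0 and 14.8 CPM in basal-led and 95.7 and 28.7 CPM in mature luminal-led cells. Pcna had opposite orders, with 68.0 and 149 CPM in basal-led cells and 151 and 84.0 CPM in luminal progenitor-led cells.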

How the data were processed

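Raw counts of read pairs per gene, 1 table per cell, were deposited by the authors, who aligned reads to mm10 with Subread and counted them with featureCounts and its built-in RefSeq annotation. Tool versions and use of strand are not given in the sources used here. A combined table of the same counts was not used. Of 27179 identifiers, 25275 matched a gene of GRCm38.p6, and the unmatched held 1.84% of read pairs. Mitochondrial genes (15) and ribosomal protein genes (125) were removed. Fewer cells passed the filter than the study kept. Doublets were not removed by a caller.

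Each retained cell was thinned without replacement to 100000 read pairs (seed 1). A gene was detected with at least 1 read. Stage sums were scaled to CPM, or per length of exons (RPKM). Intervals at 95% were exact Poisson (sums) or Clopper-Pearson (shares), a share of 0 was given the limit of 3 counts, and all cover counting error only. The ratio script was tested on simulated data. Members with 20 CPM in a stage and Mcm2 to Mcm7 and Pcna were described singly. From the lists, genes past the level and 2-fold apart were named, and 15 genes by correlation. Alternatives were unthinned counts, another seed (2), stricter cell filters, either adult set, a prior of 10 CPM, removal of the highest cell, edgeR TMM factors, no level filter, other detection limits and other class margins. Python 3.11.15, numpy 2.4.6, scipy 1.17.1, R 4.3.3 and edgeR 4.0.16 were used. The members and lists were chosen with earlier results of these data known.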

Additional observations from a re-analysis of the deposited data

Results flagged for a closer look

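Reads of S-phase genes also appeared in cells that no comparison used, those left out for low coverage, which is what drew attention to them. The 50 pubertal cells left out had 1047 CPM of S-phase genes (2452 of 2342964 read pairs), against 1881 CPM in the retained pubertal cells without thinning. The 71 adult cells left out had 1327 CPM (3222 of 2428722 read pairs), against 1280 CPM in the retained adult cells. In the cells left out the stages thus stood in the opposite order, which was not tested. Their median depth was 17958 read pairs at puberty and 17018 in the adult. With no thinning, 3 of these pubertal cells and 1 of these adult cells had 13 or more S-phase genes, and 17 and 21 had none.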

How the results depend on the processing

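Over 88 recomputed values, 56 stayed within a range set around the reported value and 32 moved. The range was the counting interval for shares of cells and mean gene numbers, and within 1.5 times for counts of genes. For the median log2 ratio it lay between the medians of the bounds of single genes. The mean of log2(CPM + 1) took the relative width of the interval of the gene number. The share of reads was treated as a share of cells. The median log2 ratio of the list did not change sign in any of the recomputed values. The median log2 ratio of the genes past the level was 0.60 with unthinned counts, 1.19 against adult cells 48 to 188, 0.36 against the other adult cells and 1.05 without the highest cell of each gene. TMM factors moved the median of all genes from 0.09 to −0.06, and Rrm1 and Prim1 then fell below 0 (−0.06 and −0.05). Without a level filter, 19 of all 39 genes were 2-fold higher, and no share over all genes stands beside this count. Unthinned counts gave 10.4 genes per pubertal and 8.70 per adult cell, and means of log2(CPM + 1) of 1.46 and 1.12. The high range then held 26.9% of pubertal and 23.7% of adult cells, a smaller gap than with thinned counts. Cells with at least 200000 read pairs and 2500 genes gave 8.85 genes and 1.47 at puberty. Adult cells 48 to 188 gave 7.47 genes and 1.11, and the other adult cells gave 5.47 genes, 0.86 and 6.67% in the high range. Detection at 5 reads gave 5.03 and 3.47 genes, and 12.9% and 3.29% in the high range, with 7.32% and 4.62% of basal-led cells and 0% of adult luminal progenitor-led cells. With 10 or more genes the adult share was 25.0%, and 41.5% among basal-led cells, above the 26.8% of pubertal ones. With 16 or more it was 5.92%, with 7.69% among basal-led and 0% among luminal progenitor-led cells. The latter were also at 0% with a class margin of 0.5, and adult basal-led cells were at 38.2% with unthinned counts, above the 28.2% of pubertal ones. The 10% of cells with most other members held 40.0% of a gene's reads, a larger set by construction. The cause of the other shifts was not tested. No paired analysis was possible because the replicate numbers in the labels only number cells and pair no samples. Depth may limit detection of genes under 20 CPM most, which was not tested, and the reads carried no UMIs.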
